A study of Drosophila melanogaster with 3 samples.

Results

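The 302 loci described here are places in intergenic DNA of Drosophila melanogaster, more than 500 and at most 3000 bp from the nearest annotated transcript start, where the protein CG8119 was found in all 3 replicates of a chromatin immunoprecipitation experiment (ChIP-seq). The animals were whole prepupae, aged 1 day, of the strain CG8119-GFP, which carries a transgene that makes CG8119 fused to enhanced green fluorescent protein. Chromatin was sheared by sonication and pulled down with an antibody against the fluorescent tag. All 3 samples are biological replicates of this 1 group, and no control library was analysed here. Summits, the highest points of the peaks, were joined across replicates wherever neighbours lay within 150 bp. Of the 9014 joined loci, 3746 held a summit of every replicate, and these are called shared loci. A shared locus was kept if its centre, the median of its summits, lay outside every annotated gene body and its nearest transcript start of any gene was over 500 and up to 3000 bp away. That left 302 of 3746, or 8.06%. The other shared loci fell into 1199 promoter loci (within 500 bp of a start), 940 near genic loci (inside a gene body, over 500 and up to 3000 bp from a start), 312 distal intergenic loci and 993 deep genic loci (both over 3000 bp from a start). The rule used position and presence, with no threshold on peak strength beyond that of the peak lists.

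DNA just outside promoters often holds enhancers, stretches to which transcription factors bind and from which they raise or lower the transcription of genes nearby. Fly genes are close together, so an intergenic site of this kind commonly lies between a pair of genes, and the nearest start need not belong to the gene that the site acts on. CG8119 is an uncharacterised gene. A ChIP-seq peak marks where fragments carrying the tagged protein were concentrated, either because it touches the DNA itself or because it is held there by other proteins, and by itself it shows no effect on any gene beside it. The labels do not say what drives the transgene, how many animals went into a replicate or their sex, and whole animals mix the chromatin of all tissues.

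Windows of 300 bases show what these sites look like. The first is the strongest of the 302, upstream of the noncoding gene lncRNA:CR45643 (chr3R:16222340-16222639, build dm6, plus strand). The other 4 hold the word CAGTGCA, or its reverse complement TGCACTG, in the arrangement described with the sequence words further on. They lie upstream of E(spl)malpha-BFM, a Bearded family gene of the Notch pathway (chr3R:26008955-26009254), of fz, which encodes the Wnt receptor Frizzled (chr3L:14272431-14272730), of the noncoding gene lncRNA:CR44723 (chr3L:11325734-11326033) and of Pgant2, an enzyme that adds N-acetylgalactosamine to proteins (chr2L:3428796-3429095). All are printed on the plus strand of dm6, and capitals mark the word on either strand. The GC content is 45% in the first window, 35% at E(spl)malpha-BFM, 25.3% at fz, 38% at lncRNA:CR44723 and 33.7% at Pgant2.
lncRNA:CR45643 locus: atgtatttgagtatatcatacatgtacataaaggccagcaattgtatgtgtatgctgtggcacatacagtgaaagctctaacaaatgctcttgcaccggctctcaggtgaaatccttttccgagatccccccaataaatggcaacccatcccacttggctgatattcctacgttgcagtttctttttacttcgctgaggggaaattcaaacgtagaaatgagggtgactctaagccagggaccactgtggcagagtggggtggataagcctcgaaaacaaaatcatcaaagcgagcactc
E(spl)malpha-BFM locus: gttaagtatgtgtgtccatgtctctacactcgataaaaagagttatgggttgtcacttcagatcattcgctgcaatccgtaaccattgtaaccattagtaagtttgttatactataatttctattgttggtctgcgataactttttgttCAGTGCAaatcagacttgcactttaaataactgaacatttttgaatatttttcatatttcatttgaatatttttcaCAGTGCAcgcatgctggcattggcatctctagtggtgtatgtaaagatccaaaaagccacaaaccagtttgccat
fz locus: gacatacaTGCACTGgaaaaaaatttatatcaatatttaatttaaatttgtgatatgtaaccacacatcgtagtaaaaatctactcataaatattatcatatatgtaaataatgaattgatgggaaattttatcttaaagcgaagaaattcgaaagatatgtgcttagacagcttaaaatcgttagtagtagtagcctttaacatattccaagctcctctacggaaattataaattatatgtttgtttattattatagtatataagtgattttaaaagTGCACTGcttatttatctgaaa
lncRNA:CR44723 locus: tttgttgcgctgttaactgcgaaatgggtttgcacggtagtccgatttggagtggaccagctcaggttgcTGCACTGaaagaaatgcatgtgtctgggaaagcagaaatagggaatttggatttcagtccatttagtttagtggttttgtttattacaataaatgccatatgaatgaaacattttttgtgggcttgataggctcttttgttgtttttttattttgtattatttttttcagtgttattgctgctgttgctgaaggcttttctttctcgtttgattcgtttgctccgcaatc
Pgant2 locus: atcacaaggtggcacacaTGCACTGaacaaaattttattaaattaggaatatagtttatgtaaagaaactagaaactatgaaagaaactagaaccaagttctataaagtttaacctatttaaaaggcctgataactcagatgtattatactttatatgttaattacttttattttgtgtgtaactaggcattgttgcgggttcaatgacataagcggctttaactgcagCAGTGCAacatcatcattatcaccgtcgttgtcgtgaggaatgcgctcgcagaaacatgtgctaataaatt

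Both protein-coding and noncoding genes lay beside the strongest loci. Peak signals are the values that the authors deposited, in a unit that no source at hand names, so they are given as a description. At the locus 905 bp upstream of lncRNA:CR45643 the signals of replicates 1, 2 and 3 were 620.4, 547.6 and 418.1. It ranked 110 among the 3746 shared loci.

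The next was 573 bp upstream of ds, which encodes Dachsous, an atypical cadherin of the Fat pathway, with signals of 577.2, 476.8 and 466.6 in replicates 1, 2 and 3. A site 738 bp upstream of ed, which encodes the adhesion molecule Echinoid, had 520.8, 423 and 391.3. In every replicate both stood high in the peak list, at a percentile of at least 96.3. The locus nearest CG17896, at 503 bp the closest to a start of all members, had nearly even values of 415.6, 405.1 and 398.9. Upstream of Atf3, a bZIP transcription factor gene, the signal was 476.5, 377.9 and 315.2. At stck, which encodes the LIM protein PINCH of integrin adhesions, it was 379.6, 451.2 and 324.3. Replicate 3 had the lowest value at each of these 6 loci, and its list was the shortest.

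Further down the same ranking, the fz locus, 1762 bp upstream of its start, had signals of 282.5, 399.4 and 321.2. The E(spl)malpha-BFM locus, 1788 bp upstream, had 312.3, 356 and 311.4. The remaining loci among the 20 strongest were nearest to lncRNA:CR44713, lncRNA:CR45392, CG18404, RasGAP1, a GTPase activating protein of Ras, lncRNA:CR44723, klu, a zinc finger factor gene, lncRNA:CR45310, CG16964, CG15625 and stv, a BAG cochaperone, with 2 loci at lncRNA:CR45937. Their lowest signal in any replicate was 256.6, at stv in replicate 3. At the other end lay sll, which encodes a transporter of the sulphate donor, lncRNA:CR45251, lncRNA:CR45234, CG43347 and CG34221. The CG34221 locus was the weakest of all shared loci, with 50.47, 40.34 and 45.43. It lies 580 bp upstream of CG34221, and the gene on its other side is Hr3, a nuclear receptor of the ecdysone response.

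**Figure D1:**
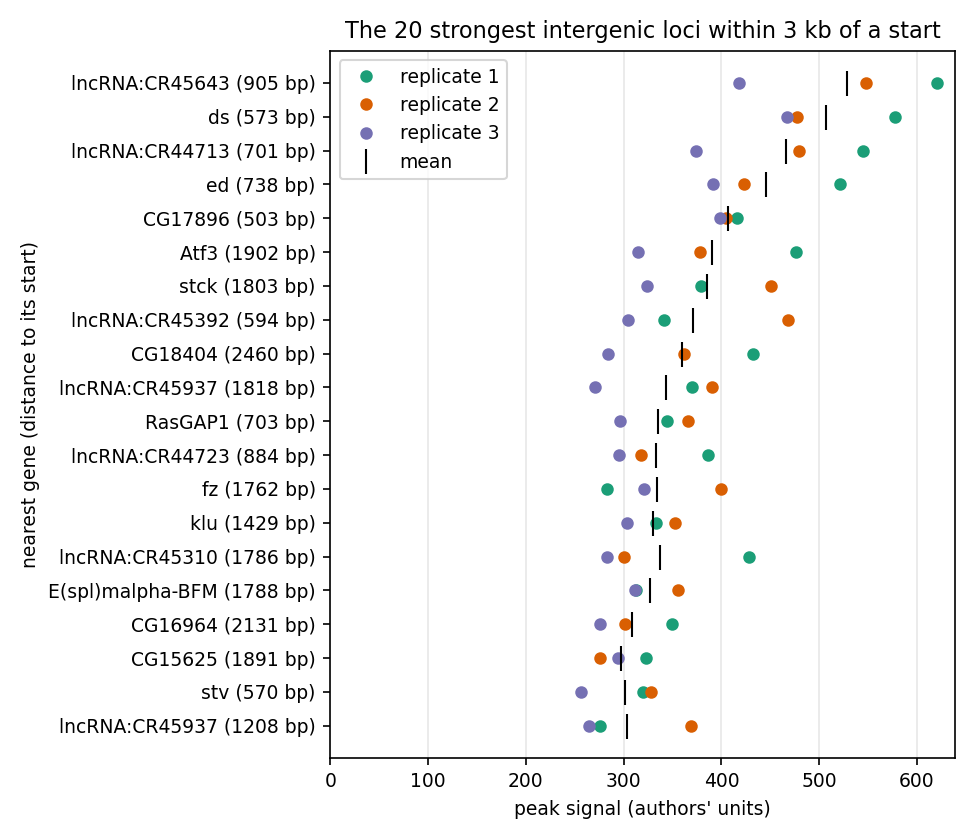
Peak signal in the authors' units (x axis) at the 20 strongest of the 302 intergenic loci, named by the nearest gene and the distance to its start, with 1 point per replicate and a bar at the mean. The top locus, at lncRNA:CR45643, runs from 418.1 to 620.4, and every value shown is at least 256.6.

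Across all 302 loci the signal ran from 50.47 to 620.4 in replicate 1, with a median of 142.3. In replicate 2 it ran from 40.34 to 547.6, with a median of 137.7, and in replicate 3 from 45.43 to 466.6, with a median of 107. The peaks of these loci had median widths of 302 bp, 376 bp and 360 bp in replicates 1, 2 and 3. Their summits agreed closely in place: the median distance between the outermost summits of a locus was 31 bp, and 287 of the 302 loci held exactly 3 summits. Just inside the distance limits of the rule lay CG17896 at 503 bp and CG43401 at 512 bp, with mean signal percentiles of 96.2 and 24.0, and CG33225 at 2979 bp and CheA75a at 2980 bp, with 63.2 and 65.9. Just outside lay scrib at 489 bp and tRNA:Leu-CAA-2-2 at 495 bp, with 60.2 and 46.5, and tRNA:Ile-TAT-1-1 at 3014 bp and Cpr51A at 3025 bp, with 37.4 and 35.9.

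As a group the loci were of middling strength among shared loci, below promoter loci and above distal intergenic ones. Strength was compared as the percentile of the signal within each replicate's own peak list, since the scale of the signal is unknown. The lists held 7279, 6769 and 4608 peaks in replicates 1, 2 and 3, and the read depth is unknown. The median percentile of the 302 loci was 72.0, 70.2 and 56.3 in replicates 1, 2 and 3, with a mean of 66.2 ± 8.59 (SD, n = 3). Promoter loci had 73.4 ± 6.84, near genic loci 68.4 ± 8.12, distal intergenic loci 61.9 ± 6.43 and deep genic loci 64.3 ± 7.80. These SDs mostly reflect the lower values of replicate 3 in every class, so each difference was taken within a replicate. The same shared loci fill more of the shorter list of replicate 3, which lowers the median percentile they can reach there. Every class averaged above the middle of the lists. The part that required presence in all 3 lists plays in this was not tested.

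The intergenic loci lay below promoter loci, with differences of -6.13, -6.33 and -9.26 percentile points in replicates 1, 2 and 3 and a mean of -7.24 ± 1.75 (SD, n = 3). Against near genic loci, which are matched in distance, the mean difference was -2.26 ± 0.563. Against distal intergenic loci it was 4.25 ± 2.16, and against deep genic loci 1.85 ± 1.08. Each of the 4 differences had the same sign in 3 of 3 replicates and exceeded its SD. The exact sign-flip permutation test over replicates, two-sided, gave p = 0.25 for each (0.25 after Benjamini-Hochberg adjustment over the 4), the smallest value that 3 replicates allow, so no difference can pass 0.05. The gap to promoter loci was -3.72 without replicate 3 and -12.5 in the stronger 50% of each list. For the stronger 50%, percentiles were ranked anew within the shortened lists, so a point there spans fewer peaks. Gaps in the stronger 50% can thus be compared with the others in sign but not in size. The gap to near genic loci was -3.59 with a join distance of 50 bp and -3.84 in the stronger 50%, and both kept their sign. The gap to distal intergenic loci was less stable. It had 1 negative replicate of 3 when protein-coding genes alone were used as gene models (2.66 ± 2.49), when transposable elements were included as genes (3.70 ± 3.34) and in the stronger 50% of each list (4.28 ± 4.24).

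**Figure D2:**
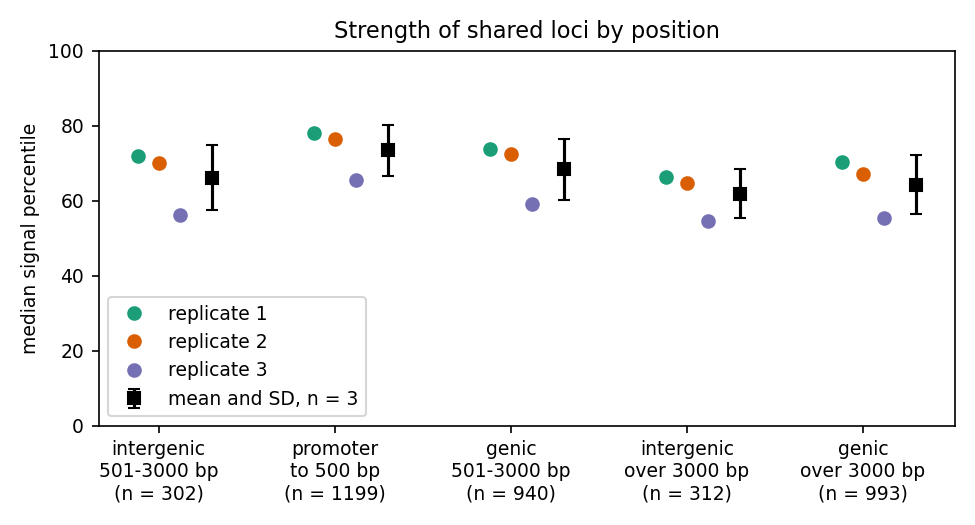
Median signal percentile within each replicate's peak list (y axis, 0 to 100) of shared loci in 5 classes of position, with 1 point per replicate and a square with its SD bar for the mean of 3. The 302 intergenic loci within 3000 bp of a start average 66.2, against 73.4 for promoter loci and 61.9 for distal intergenic loci, and replicate 3 is lowest in every class.

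Fewer of the intergenic loci than of all shared loci were among the very strongest. Of the 302, 16 (5.30%) belonged to the strongest 400 shared loci, which make up 10.7% of the whole, against 18.5% of promoter loci, 9.68% of near genic loci, 6.41% of distal intergenic loci and 5.14% of deep genic loci. Reproducibility was close to the background. Of 716 joined loci at such positions, 42.2% had a summit of all 3 replicates, against 41.6% of all joined loci, while 170 had a summit of 2 replicates and 244 of 1. Of the 302, 301 also had a summit in the conservative list of the whole series, against 99.5% of all shared loci. Neither share sets the intergenic loci apart.

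Strength was also set against the surroundings of a locus. The median percentile averaged 66.6 ± 6.36 (SD, n = 3 replicates) for the 84 loci up to 1000 bp from the start, 65.9 ± 9.61 for the 144 beyond that and up to 2000 bp, and 64.5 ± 10.7 for the 74 beyond 2000 bp. It was 65.7 ± 9.50 upstream and 66.1 ± 7.27 downstream of the nearest start, and 66.0 ± 9.94 beside protein-coding genes and 66.3 ± 6.30 beside noncoding RNA genes. Within replicates, the nearest distance group minus the farthest gave 2.13 ± 4.43 percentile points, upstream minus downstream -0.367 ± 2.26 and noncoding minus protein-coding 0.367 ± 3.98, each with replicates of both signs. Loci between divergent genes had 62.0 ± 6.65 (97 loci), against 67.4 ± 9.43 between genes in tandem (147 loci) and 66.8 ± 6.83 between convergent genes (58 loci). Divergent minus tandem gave -7.26, -6.87 and -2.23 in replicates 1, 2 and 3, and divergent minus convergent -4.82 ± 1.40 (SD, n = 3), negative in 3 of 3 replicates. The 56 loci on 2L averaged 61.1 ± 9.23, and the other 4 large arms lay between 65.0 and 68.2. Loci on 2L minus loci on the X gave -7.07 ± 5.29, also negative in 3 of 3. These pairs were chosen after their values were seen and were not tested.

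Most loci lay upstream of the start they were nearest to. That held for 224 of 302 (74.2%), while 78 lay beyond the 3′ end of the nearest gene. By the rule, a locus can lie downstream only where the gene ends within 3000 bp of that start. The distance to the start ran from 503 to 2980 bp with a median of 1412.5 bp, and the intergenic gap that holds the locus had a median length of 5426 bp. The nearest start was that of a protein-coding gene for 193 loci, a noncoding RNA gene for 98, a tRNA gene for 8, a pseudogene for 2 and a snoRNA gene for 1. How all DNA that meets the rule divides by side or gene type was not counted, so these shares show no preference. Where tRNA genes come in near-identical copies, the authors' mapping of reads to them is uncertain.

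The 302 loci had 275 different nearest genes, 254 of them with a single locus. The noncoding gene lncRNA:CR45737 had 4, at 619 to 2175 bp from its start, all in the gap it shares with sty, which encodes Sprouty, an inhibitor of EGFR and FGF signalling. Their mean percentiles ran from 55.3 to 86.2. There were 3 loci each nearest to stck, CG13898, lncRNA:CR45392 and lncRNA:CR45243. The 3 upstream of stck were spaced along 1217 to 2375 bp and had mean percentiles from 50.8 to 95.4. The 16 genes with 2 loci were RasGAP1, CG15625, Msr-110, CG43658, CG7896, Gint3, CG34289, CG13643, CG5958, lncRNA:CR45643, lncRNA:CR45937, lncRNA:CR44546, lncRNA:CR44547, lncRNA:CR45251, lncRNA:CR44627 and lncRNA:CR43883. Loci of 1 gene can share neighbouring DNA and are not independent.

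Many loci had another shared locus close by. The next one lay at a median of 3591 bp, and within 3000 bp for 139 of 302 (46.0%). The share was 32.9% for promoter loci, 48.2% for near genic, 42.3% for distal intergenic and 39.6% for deep genic loci. Distances over 500 and up to 700 bp were found for 37 loci, against 12 over 700 and up to 1000 bp and 4 at 500 bp or less. At 500 bp or less there were 9 of 1199 promoter, 5 of 940 near genic, 0 of 312 distal intergenic and 2 of 993 deep genic loci. Within 1000 bp the share was 17.55% for the 302, 11.9% for promoter, 18.0% for near genic, 16.0% for distal intergenic and 14.8% for deep genic loci. Neither distance set the 302 loci apart. At lncRNA:CR45643 the neighbour of the strongest locus lay 582 bp away, with signals of 153, 194.9 and 100.2 in replicates 1, 2 and 3. Summits within 150 bp of each other had been joined, and the part of this and of the peak widths in the scarcity under 500 bp was not tested.

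Part of the nearest genes also had a locus at the promoter. Of 13968 protein-coding genes, 180 (1.29%) had a start nearest to 1 of the 302 loci, and 44 of these 180 (24.4%) had a further one at most 500 bp from a start of theirs, against 9.06% of all protein-coding genes. The same share was 26.7% for genes nearest to near genic loci, 25.2% for deep genic and 13.1% for distal intergenic loci, so it is not particular to the intergenic loci described here. No test was made over genes. At Atf3, klu, lola, ph-d and aop both kinds of locus were present, whereas ds, ed, fz and stck had none within 500 bp of a start.

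The genes beside these loci included several known regulators of development. Of 458 genes on 13 lists of pathways and gene classes, 24 (5.24%) had a start nearest to a locus. The share of all protein-coding genes was 1.29%, and the difference was not tested. The lists were chosen with earlier results of these data known, so an excess may be partly built in. Of the same 458 genes, 98 had a promoter locus, against 1266 of 13968 protein-coding genes (9.06%). The lists were thus also rich in genes with promoter loci, and the difference was not shown to be particular to the intergenic loci. The list of Hippo, JAK-STAT and insulin signalling had 4 of 33 genes nearest to an intergenic locus. They were ds, ft, which encodes Fat, the receptor for Dachsous, ex, an upstream regulator of the Hippo pathway, and the growth regulator Myc. At ft the signals were 57.4, 123.5 and 99.77 in replicates 1, 2 and 3, and at ex they were 96.43, 74.83 and 114.7. The Myc locus, 1678 bp upstream, had 173.4, 180 and 131.9. Every value at ds was above every value at the other 3 genes, and the values at ft and ex overlapped.

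Other lists hold genes of other signalling pathways. From the Notch list, with 2 of 33 genes, came E(spl)malpha-BFM and ct, which encodes the homeodomain protein Cut. The ct locus had signals of 176.3, 152.6 and 175.9 in replicates 1, 2 and 3. From the EGFR and FGF list, with 2 of 28, came aop, which encodes the Ets repressor Yan, and kek1, an inhibitor of the EGF receptor. The aop locus had 169.4, 209.4 and 208.6, and the kek1 locus 101.5, 118.4 and 71.53, so the groups of values did not overlap. The Wnt, Hedgehog and BMP list had 1 of 35, fz.

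Transcription and chromatin regulators formed another set. The ecdysone list had 2 of 42 genes, the nuclear receptor gene Eip78C, with signals of 150.6, 143.9 and 110.9 in replicates 1, 2 and 3, and chinmo, a BTB zinc finger gene of temporal identity, with 72.96, 62.36 and 86.75. The homeobox and patterning list had 3 of 66, namely bab2, dve and hry, the last the pair-rule gene hairy, and the chromatin and insulator list 3 of 39, namely ph-d, a Polycomb group gene, hng3 and psq, which encodes Pipsqueak. The ph-d locus was the strongest of those 6, with 181.7, 259 and 173.6. The neural list had 2 of 34: wor, a Snail family gene of neuroblasts, whose locus lay downstream, and lola, a BTB factor of axon growth. At lola the values of 214.9, 213.9 and 216.3 were almost equal.

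In the clock list 1 of 13 genes had a locus, dco, which encodes the kinase Doubletime. The cuticle list had 2 of 37 (Cpr50Ca and Cpr62Bc), and the muscle, actin and adhesion list 2 of 33 (Act87E and ed). None of 30 genes for cell death, autophagy and heat shock was nearest to a locus, and none of 39 for fat body, metabolism and immunity, although 7 and 15 of them had a promoter locus. At the background of 1.29%, so few genes per list leave a count of 0 uninformative. The tagged gene itself had no such locus: CG8119 (FBgn0030664, chromosome X, 15662585 to 15663319, dm6, plus strand) lay 8671 bp from the nearest shared locus and 1180790 bp from the nearest of the 302.

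Per length of DNA that meets the rule, summits were about as dense as in near genic DNA and denser than in distal intergenic DNA. Intergenic DNA over 500 and up to 3000 bp from a start held 53.5, 51.5 and 33.7 summits per Mb in replicates 1, 2 and 3, with a mean of 46.2 ± 10.9 (SD, n = 3). Near genic DNA held 44.0 ± 8.97, distal intergenic DNA 20.2 ± 3.60 and promoter DNA 117.5 ± 32.6. The difference from distal intergenic DNA was 26.0 ± 7.32, positive in 3 of 3 replicates. The difference from near genic DNA was 2.27 ± 1.90 and only 0.0834 in replicate 3. These densities count all summits, shared or not. Density was lower beyond 2000 bp from the start than nearer to it. In steps of 500 bp it was 54.8 ± 14.0 summits per Mb up to 1000 bp, 53.2 ± 10.7 up to 1500 bp, 45.3 ± 8.37 up to 2000 bp, 35.8 ± 9.07 up to 2500 bp and 35.3 ± 11.2 beyond that. It did not fall at every step, since replicate 3 had 38.6 in the first bin and 40.9 in the second. Shared loci alone numbered 30.03, 34.65, 28.7, 20.3 and 20.6 per Mb in the 5 bins. The nearest of these 5 bins exceeded the farthest by 19.6 ± 2.90, in 3 of 3 replicates (exact sign-flip permutation p = 0.25 for each of these differences). All bases of the assembly other than N were counted, including repeats where reads map poorly.

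The arms differed in how many loci they held. There were 97 loci on 3L (32.1%, where 863 of all 3746 shared loci lay), 75 on 3R, 56 on 2L, 43 on 2R and 31 on the X (10.3%, against 20.6% of all shared loci), and none on chromosomes 4 and Y. The density on 3L was 69.2 ± 14.6 summits per Mb, and on 2R 36.9 ± 10.8, a difference of 32.4 ± 3.87 (SD, n = 3) that was positive in 3 of 3 replicates. On the X it was 35.0 ± 8.64, against 48.2 ± 11.3 on the autosomes together, a difference of -13.3 ± 3.18 and negative in 3 of 3 replicates. Distal intergenic DNA showed the same pattern. It held 29.7 ± 5.26 summits per Mb on 3L and 14.65 ± 1.63 on 2R, a difference of 15.1 ± 3.64, and it held 11.6, 10.2 and 8.28 on the X in replicates 1, 2 and 3, against 21.9 ± 3.95 on autosomes, a difference of -11.9 ± 2.62. Both had 1 sign in 3 of 3 replicates, so neither the excess on 3L nor the low X density was particular to the 302 loci. On the X near genic DNA ran the other way, with 58.8 ± 10.6 on the X and 40.6 ± 8.61 on autosomes, and so did promoter DNA, with 132 ± 27.7 on the X and 114.6 ± 33.5 on autosomes. The X difference of the intergenic loci was -6.38 in the stronger 50% of each list. There fewer summits are set over the same length of DNA, so its size cannot be set against -13.3. When protein-coding genes alone defined gene bodies and starts, the X difference was -0.512 ± 2.15. It was then -2.65, -0.538 and 1.65 in replicates 1, 2 and 3, so it depends on the gene models. Sex was not recorded, and the number of X copies per cell cannot be told apart from the arm.

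**Figure D3:**
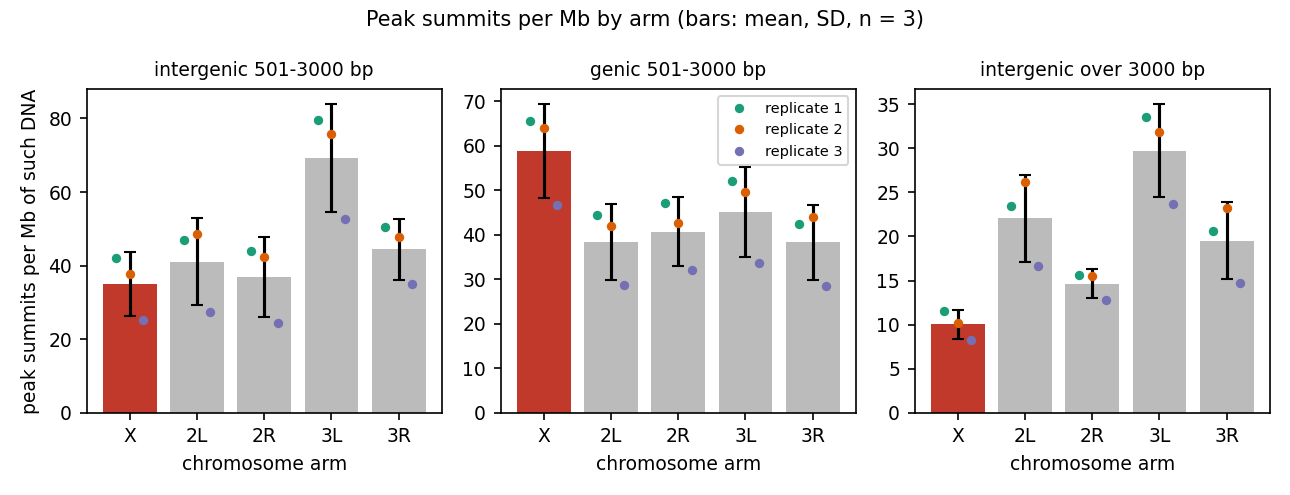
Peak summits per Mb of DNA of the same class (y axis, a different scale in each panel) on the 5 large chromosome arms, with 1 point per replicate, bars for the mean and lines for the SD of 3. In intergenic DNA within 3000 bp of a start the X, in red, averages 35.0 and 3L 69.2. Distal intergenic DNA has the same pattern, with 29.7 on 3L and 21.9 on autosomes together, while in genic DNA at the same distance the X averages 58.8, and with protein-coding genes alone as gene models the intergenic X difference is -0.512.

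The summits sat in short stretches rich in A and T. In windows that reach 100 bp to either side of each replicate's own summit, the GC content of the 302 loci was 33.6%, 33.3% and 33.7% in replicates 1, 2 and 3, with a mean of 33.5% ± 0.193 (SD, n = 3), against 42.3% ± 0.0995 in the windows 500 bp to either side. The difference was -8.80 ± 0.208 percentage points, negative in 3 of 3 replicates (exact sign-flip permutation p = 0.25, the smallest possible). All 3 values come from the same 302 loci, whose outermost summits lay a median of 31 bp apart. The SD thus reflects the placement of summits and not variation between loci. Intergenic DNA of the same class as a whole had 40.3%. Of the 302 centres, 246 (81.5%) had a lower GC content than the mean of their own flanks, and centres ran from 16.9% to 53.2% with a median of 33.3%. In bins of 20 bp the lowest mean, 29.1%, lay 30 bp left of the centre, against 41.8% at 800 to 1000 bp. The dip was not particular to these loci: the difference was -9.35 ± 0.226 at promoter, -8.30 ± 0.236 at near genic, -10.4 ± 0.149 at distal intergenic and -8.49 ± 0.185 at deep genic loci. No input library was analysed here, so the part that base composition plays in fragment recovery was not tested.

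**Figure D4:**
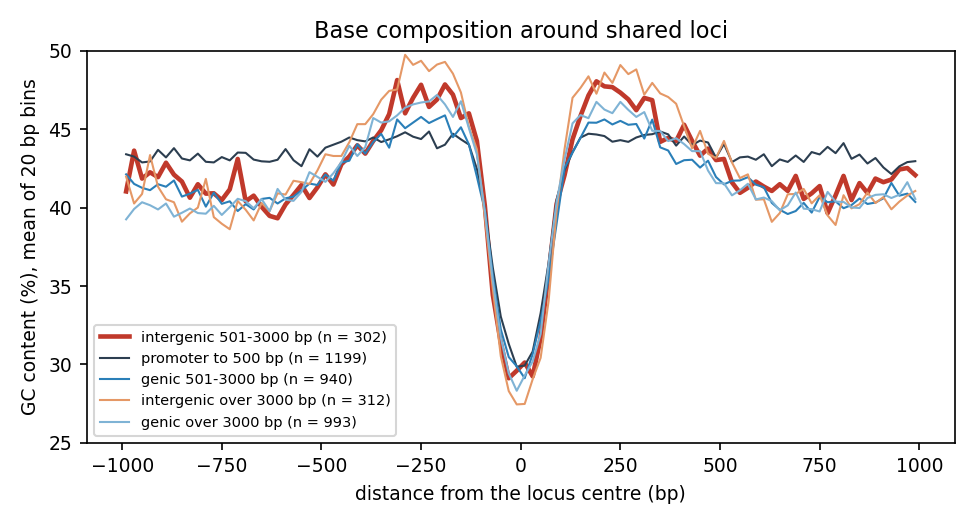
Mean GC content in bins of 20 bp (y axis, percent, from 25 to 50) against the distance from the locus centre (x axis, bp) for the 5 classes of shared loci. The 302 intergenic loci, in red, dip to 29.1% near the centre, and the other 4 classes dip alike.

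Among 25 fixed sequence words sought on both strands, TATAAA, the letters of the TATA box, differed most from the flanks. It was in 34.4% of the 302 centre windows, against 19.9% of flank windows and 24.8% of tiled windows of this class of DNA. TAATTA, a homeodomain element, was in 17.9% of centres against 13.6% of flanks and 16.1% of tiled windows, and in 17.8% of all shared centres. TGGGAA, part of the Su(H) element, was in 13.6% of centres against 11.6% of flanks and 13.1% of tiled windows. Both were thus near the background of the class. Next came GTCACAC and CAGGTAG, each in 1.33% of centres against 0.828% of flanks, which is 4 loci each. Of all shared loci, 39.3% held TATAAA at the centre.

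The word GAGAG, to which the GAGA factor and CLAMP bind, was rarer at the summits than beside them. Averaged over replicates it was in 19.4% ± 0.191 of summit windows, against 24.6% ± 0.253 of flanks, a difference of -5.19 ± 0.345 percentage points (SD, n = 3), negative in 3 of 3 replicates (exact sign-flip permutation p = 0.25). Tiled DNA of the class held it in 19.6% of windows, so the summits were near that background and the flanks above it. With protein-coding gene models alone the difference was -3.11. The 3 replicates share the same loci, so the SD reflects the placement of summits and not variation between loci. CAGCTG, an E-box, was in 2.98% of centres against 7.95% of flanks, and AACCGG, part of the Grainyhead element, in 1.33% against 4.97%. The summit windows are poorer in G and C than the flanks, as given above, and the part of this in the counts of words was not tested.

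Ranked over all words of 7 bases on 2L, 2R and 4, the leading 5 consisted of A and T alone, and they overlap one another. On 3L, 3R and X, which were not used for the ranking, ATTTTTA was in 26.1% of 203 centres against 14.0% of flanks. AAATTAT was in 23.2% of them against 11.8%, and AAAAAAT in 37.4% against 19.7%. ATATAAT was in 14.3% against 5.91%, and TTAAAAA in 28.1% against 15.3%. Each was thus more frequent at centres than at flanks on arms not used for the ranking. On 2L, 2R and 4 an excess was built in by the ranking. There the words were in 36.4%, 29.3%, 34.3%, 27.3% and 31.3% of 99 centres, in the same order. Over all arms they were in 29.5%, 25.2%, 36.4%, 18.5% and 29.1% of the intergenic centres, with the built-in part included. Of all shared centres, 23.4%, 19.3%, 34.8%, 16.4% and 27.3% held them. Tiled windows of this class of DNA held them in 15.8%, 12.8%, 19.1%, 8.24% and 16.0%. The words were thus also frequent over all shared loci, and were not shown to be particular to the intergenic loci.

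A word with more G and C stood out beside them. CAGTGCA was chosen after its values were seen, as the leading word of 7 bases with at least 3 G or C. It was in 51 of 302 centre windows (16.9%), against 3.81% of flank windows and 3.47% of tiled windows of this DNA. On each replicate's own summits it was in 17.2%, 15.6% and 14.2% of windows in replicates 1, 2 and 3, with a mean of 15.7% ± 1.49 (SD, n = 3), against 3.86% ± 0.0956 of flanks. The difference was 11.8 ± 1.50 percentage points and positive in 3 of 3 replicates, which again share the same loci. It was in 16.2% of the 99 centres on the arms of the second chromosome and in 17.2% of the 203 on the other arms. Loci of all arms were used to choose the word, so an excess was built in on both sets of arms. The word was in 17.9% of distal intergenic centres, 14.8% of deep genic, 9.47% of near genic and 7.76% of promoter centres. Overlapping words followed: CACTGAA was in 11.6% of the 302 centres against 2.65% of flanks, and AGTGCAC in 10.3% against 1.82%, while CAGTGTA and AGTGCAT and also GCACTGA were in 8.28% to 9.93%.

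The word lay mostly to the side of the summit and mostly faced 1 way. At 51 to 200 bp from the summits of the 302 loci it occurred 0.938, 0.916 and 0.872 times per kb in replicates 1, 2 and 3, with a mean of 0.909 ± 0.0337 (SD, n = 3). Within 50 bp it occurred 0.437 ± 0.100 times per kb, and over 200 and up to 500 bp away 0.212 ± 0.0115 times. Windows that reach 50 bp to either side of the summit gave a difference from the flanks of only 2.43 percentage points. The replicates share the same loci, so the SDs given here reflect the placement of summits. Of the occurrences at 51 to 200 bp, 77.7% ± 0.553 read CAGTGCA on the plus strand to the right of the summit or TGCACTG on the plus strand to its left, against 40.1% ± 2.24 between 200 and 500 bp away. The windows printed near the start show this arrangement. Pgant2 has the word on both sides, TGCACTG at 129 bp to the left and CAGTGCA at 82 bp to the right, and lncRNA:CR44723 has TGCACTG at 77 bp to the left.

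At E(spl)malpha-BFM there are copies of CAGTGCA at 2 and 78 bp to the right, and at fz copies of TGCACTG at 139 bp to the left and 131 bp to the right, the second of which faces the other way. The strongest locus, at lncRNA:CR45643, has no copy in its window. In all, 76 of 302 loci (25.2%) had the word within 200 bp of the centre, and 6 had it on both sides in this arrangement. The same facing was seen in 80.0% ± 1.72 of occurrences at distal intergenic loci, 78.9% ± 0.675 at deep genic, 74.0% ± 1.13 at near genic and 64.1% ± 1.83 at promoter loci. Strength was close between loci with and without the word. The median percentile averaged 65.7 ± 7.74 for the 76 with it and 66.3 ± 9.23 for the 226 without it (SD, n = 3 replicates). In replicates 1, 2 and 3 it was 71.1, 69.1 and 56.8 with the word. Without the word it was 72.4, 70.8 and 55.6, so the sign of the difference varied among replicates. Matches of letters are a description and do not show which protein binds them.

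**Figure D5:**
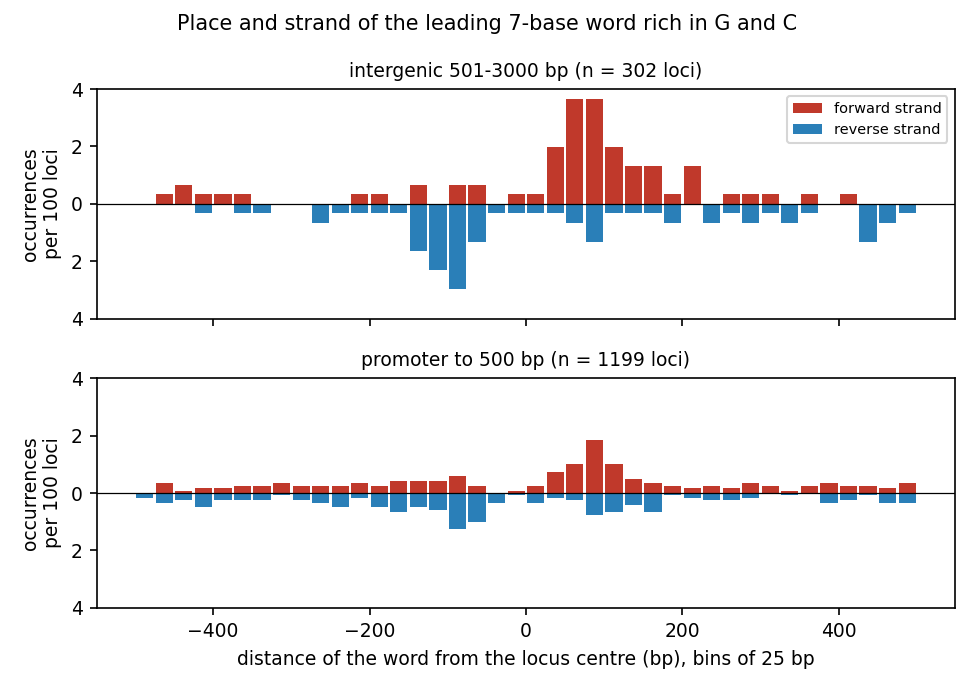
Occurrences per 100 loci of the 7-base word described in the text (y axis, plus strand upward in red, minus strand downward in blue) in bins of 25 bp by distance from the locus centre (x axis, bp), for the 302 intergenic loci (top) and the 1199 promoter loci (bottom). Red bars gather to the right of the centre and blue bars to the left, and 64 of the 82 occurrences at 51 to 200 bp in the intergenic loci face this way, against 112 of 173 in promoter loci.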

How the data were processed

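The data are ChIP-seq peak lists of 3 biological replicates, on build dm6, per the README texts that the authors deposited. Which aligner and which peak caller were used is not stated in any source used here. Lists were thresholded on the irreproducible discovery rate (IDR), the estimated share of peaks that would not be found again. The signal of a peak is the authors' deposited value on an unstated scale. The deposited score per peak is a scaled IDR, at least 830 in the thresholded lists, which equals an IDR of 0.01. The deposited ranked lists give the −log10 of the global IDR, used for an alternative. A thresholded list of the whole series that the authors call conservative was used for the presence of summits.

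Signals were ranked to percentiles within each list. Gene models came from Ensembl release 115 without transposable elements, and sequence from the RefSeq genome of the same release 6 assembly. Near genic loci, called near intronic when planned, lie anywhere in a gene body, exons included. Words were sought on both strands in windows reaching 100 bp to either side of the summit, and in flanks of the same width 500 bp away. Differences were taken within replicates and tested by exact sign-flip permutation, two-sided, with 0.25 the smallest p possible. P-values over loci or genes were not computed, because these are not replicates, and the 3 samples' separate origin is known only from the labels. Gene lists were matched by symbol, 18 through synonyms, and 2 symbols had no match. Joining and annotation were tested on simulated data. Python 3.11.15, numpy 2.4.6, pandas 2.3.3 and matplotlib 3.10.9 were used.

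Named genes are those nearest to the 20 strongest and 5 weakest loci, those with 2 or more loci, the listed genes and CG8119. Outside this rule and chosen after their values were seen are Pgant2, shown for its words, and sty and Hr3, across the gap from named loci. The genes at the distance limits were taken by distance alone. Named words are the 5 largest and 3 smallest differences from the flanks, and the 5 leading words of 7 bases. The loci, gene lists and words were chosen with earlier results of these data known. The comparisons of GC content, of CAGTGCA, of arms and of the strongest 400 were added after seeing the data. No read counts were at hand, so depth is unknown, and no interval that needs it is given. Coordinates are 1-based.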

Additional observations from a re-analysis of the deposited data

How the results depend on the processing

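Of 97 alternative values for 9 results, 92 met the rule for an unchanged result and 5 did not. A difference had to keep its sign in every replicate, and the count of loci to stay within 1.5 times. The median percentile had to move by less than its SD over replicates, 8.59. With the stronger 50% of each list the number of loci was 158. The difference from distal intergenic loci kept the sign of its mean but had 1 negative replicate of 3 with the stronger 50% (4.28), with transposable elements included (3.70) and with protein-coding gene models (2.66). The X difference was -0.512 with protein-coding gene models, negative in 2 of 3 replicates. Under the other alternatives the number of loci ran from 253, with a join distance of 50 bp, to 429, without replicate 3, and from 319 to 429 when 1 replicate was left out. The median percentile of the loci ran from 60.2 to 68.5 over all alternatives. The difference from promoter loci ran from -12.5 to -3.72, from near genic loci from -3.84 to -1.86 and from distal intergenic loci from 2.66 to 4.46. The -12.5 and -3.84 come from the stronger 50% of each list, ranked anew, so their sizes are on another scale. The GC difference ran from -12.0 to -7.65 and the GAGAG difference from -6.24 to -3.11. The difference for CAGTGCA ran from 2.43, in windows of 50 bp to either side, to 13.0. The X difference ran from -14.9 to -0.512. The cause of these shifts was not tested. No paired analysis was possible because there is only 1 group of samples; classes of loci and flanks were compared within each replicate. With 3 replicates, no test here can go below p = 0.25 (exact permutation). Without read counts, what depth limits cannot be stated, beyond the shorter peak list of replicate 3.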
